A study of Mus musculus with 8 samples.

Results

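The cytosolic ribosomal protein genes were followed here in ribosome profiling of mouse olfactory neurons with and without the RNA-binding protein Mex3a. They were found by gene symbol (the Rpl and Rps series, Rplp0 to Rplp2 and Rpsa, without Rps6k kinases and pseudogenes), which gave 83 of the 22553 genes in the deposited table: 48 of the large subunit, 32 of the small subunit and 3 of the stalk. No measured value entered this choice. Cells of the main olfactory epithelium, the nasal tissue that holds the odour-sensing neurons, were dissociated with papain and sorted for green fluorescence. The Ngn1-GFP transgene marked immediate neuronal progenitors and immature neurons, and the OMP-ires-GFP knock-in allele marked mature neurons. Control mice carried Mex3a flox/flox or Mex3a flox/+ without a Cre driver. Knockout (KO) mice were Mex3a flox/flox with Foxg1iresCre, a driver active early in the forebrain and olfactory lineage. For the OMP-GFP KO the genotype tag reads OMP-ires-Cre while the description reads OMP-ires-GFP, and GFP is what was sorted. The labels used here give no age. The 4 groups had 2 footprint libraries each, 8 in all, but the table holds 1 footprint column and 1 input RNA column per group. No spread between libraries could therefore be computed, no difference between groups was tested, and every interval below covers counting error only, for reads that PCR may have copied.

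Footprint columns summed to between 3031489 and 4456989 counts, and RNA columns to between 26946592 and 89327877. All values over the 4 groups are given in a fixed order: control then KO of the Ngn1-GFP cells, followed by control then KO of the OMP-GFP cells. Mex3a itself had 437, 28, 16 and 5 footprints and 9645, 656, 387 and 38 RNA counts. Summed over 11 marker genes, mature-neuron footprints were 12548 and 13872 CPM in the Ngn1-GFP columns (counts scaled to 1 common total, with the columns balanced by the trimmed mean of M-values, TMM) and 20681 and 24718 in the OMP-GFP columns. The 8 immature-neuron markers summed to 5899, 6532, 3931 and 4203 CPM. Markers of other cells moved between columns as well. Of the sustentacular (supporting) cell markers, 8 genes summed to 5832, 711, 209 and 584 CPM of footprints, and 8 nasal gland markers to 385, 800, 75.5 and 549. All 8 sustentacular markers had a footprint in every column, and at most 1 gland marker was at 0. These columns are bulk samples, so fewer cells of a type and less RNA per cell cannot be told apart.

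The ribosome is built from ribosomal RNA and a set of proteins of which most are present in a single copy, so cells make these proteins in balanced amounts. Their mRNAs are among the most abundant in growing cells and share a terminal oligopyrimidine (TOP) start, a C at the cap followed by a run of C and T bases, through which the mTOR pathway and the protein Larp1 switch them between polysomes and a stored, untranslated pool. In ribosome profiling, a fragment protected by a translating ribosome is a footprint, so the footprints of a gene set against its RNA show how heavily its message is occupied by ribosomes.

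The start motif was read from RefSeq (GRCm38.p6), in which 63 of the 83 genes matched a promoter window. In 13 of the 63 (20.6%) an annotated first base was a C followed by at least 4 further C or T bases. This held for 447 of 16400 genes of the whole table (2.73%) and 0 of 69 mitochondrial ribosomal protein genes. Some genes have several annotated starts, and any of them could count. By start, the numbers were 13 of 75 for members (17.3%) and 448 of 20005 for all genes (2.24%). A run of at least 8 C or T bases that touched the 10 bases on either side of a start was present in 29 of the 63 (46.0%), against 16.0% of all genes and 13.0% of the mitochondrial set. Only the transcribed strand was read, since the motif lies in the RNA. Annotated starts can be off by a few bases, so a window without the run says only that these letters are not there. Below are 15 bases before and 15 bases from the annotated start for members that the results turn on, 5′ to 3′ on the transcribed strand, with capitals for the run from the first base. The first 4 had footprints, and the last 3 had RNA but no footprint in any column. Rpl35a has other annotated starts, which lack the C-led run and are not shown.
Rplp2, a stalk protein, chr7:141447636-141447665, plus strand: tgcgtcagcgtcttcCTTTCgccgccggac
Rpl14, large subunit, chr9:120571502-120571531, plus strand: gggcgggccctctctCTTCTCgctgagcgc
Rpl35a, large subunit, chr16:33056467-33056496, plus strand: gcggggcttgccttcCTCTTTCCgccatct
Rps15a, small subunit, chr7:118116133-118116162, minus strand: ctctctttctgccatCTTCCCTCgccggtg
Rps6, small subunit, chr4:86857353-86857382, minus strand: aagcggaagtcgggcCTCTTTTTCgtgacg
Rpl15, large subunit, chr14:18270972-18271001, minus strand: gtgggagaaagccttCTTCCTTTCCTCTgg
Rpl38, large subunit, chr11:114668565-114668594, plus strand: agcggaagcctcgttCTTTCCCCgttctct
Members with and without the C-led run at the first base did not separate by detection. Of the 13 with it, 7 had at least 20 footprints in some column and 6 did not, and of the other 50 members with a window the numbers were 25 and 25. Rps25 and Rpl4, with many footprints, have no C-led run at the annotated first base. Each does have a run of 14 C or T bases by the looser rule above, which may reach past the letters shown. Their windows are given for comparison:
Rps25, small subunit, chr9:44407699-44407728, plus strand: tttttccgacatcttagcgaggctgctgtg
Rpl4, large subunit, chr9:64173372-64173401, plus strand: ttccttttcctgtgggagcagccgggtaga

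The ribosomal protein genes were rich in RNA and poor in footprints, and a few of them held most of the footprints. RNA levels per coding base were high. The median of the 83 genes was 489, 326, 243 and 229 TPM (RNA scaled by coding length and column total), against 11.7, 15.7, 15.04 and 15.7 for all genes with a count. Footprint levels per coding base were low, with a median of 5.01, 4.90, 3.07 and 3.77 RPKM (footprints scaled by coding length and column total), against 12.6, 13.8, 11.2 and 13.0 for all genes with a count. As a sum, the 83 genes took 0.373% (95% Wilson interval 0.368 to 0.379), 0.319% (0.312 to 0.325), 0.260% (0.255 to 0.266) and 0.210% (0.206 to 0.215) of the footprints. Their RNA took 1.94%, 1.19%, 0.851% and 0.872% of the RNA counts. The footprint share was thus 0.192, 0.269, 0.306 and 0.241 of the RNA share. The 78 mitochondrial ribosomal protein genes, which are encoded in the nucleus and translated on the same cytosolic ribosomes, had footprint shares that were 1.49, 1.48, 1.53 and 1.33 times their RNA shares.

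**Figure D1:**
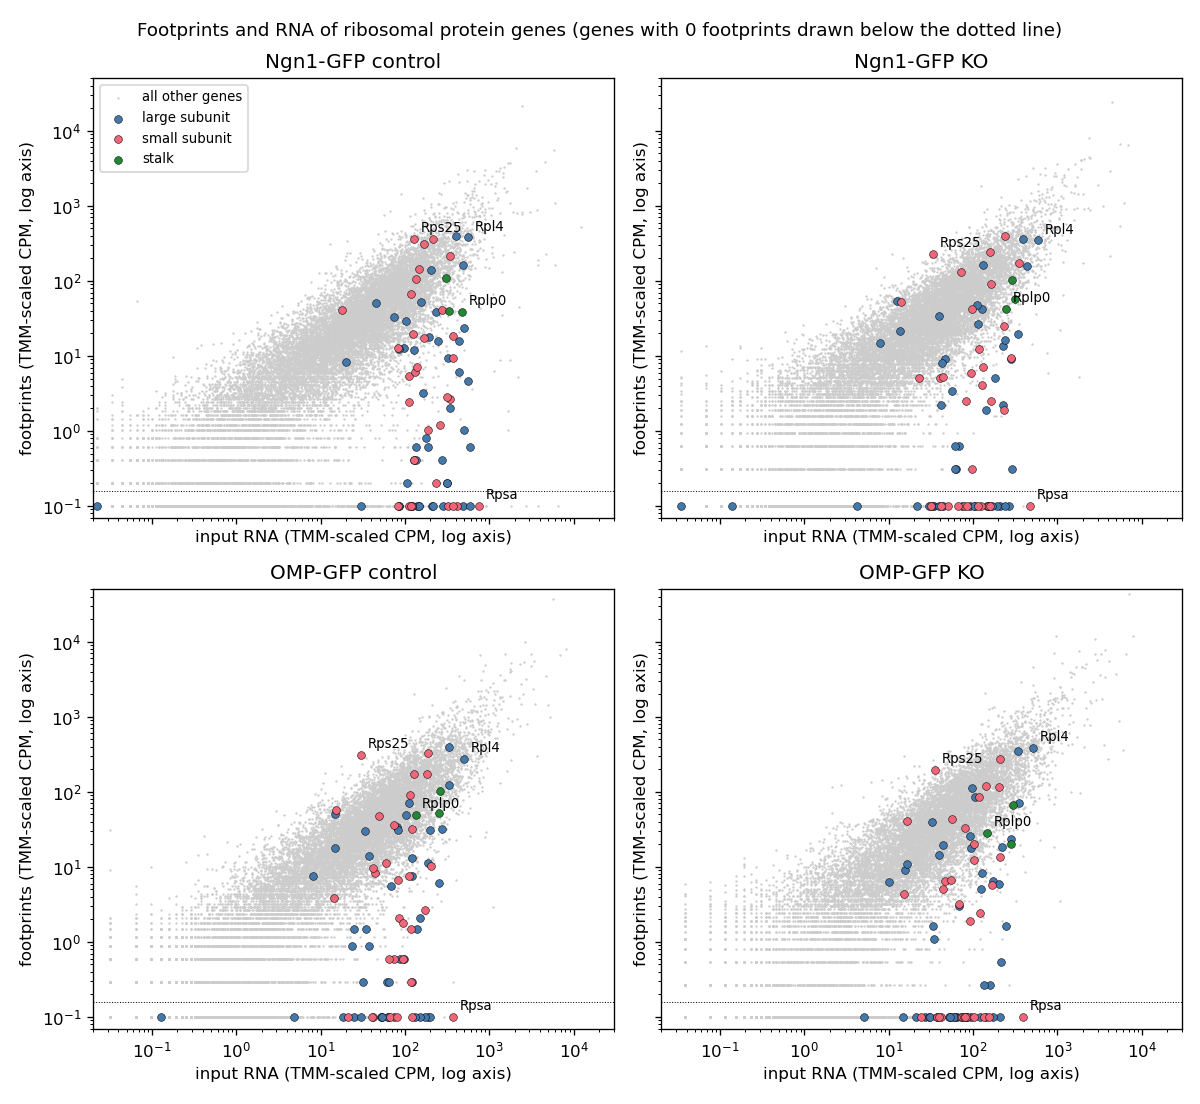
Footprints (vertical axis, CPM) against input RNA (horizontal axis, CPM) in the 4 groups, both on log axes and TMM-scaled; each point is a gene, grey for all other genes and coloured by subunit for ribosomal proteins. Coloured points run from the upper edge of the cloud (Rps25) down to the row of genes with 0 footprints, where Rpsa lies at the right in every panel.

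Many members with ample RNA had almost no footprints. Of the 83 genes, 62 had at least 1000 RNA counts in every column, and 25 of these 62 (40.3%) had under 20 footprints in the 4 columns together. Among all other genes with as much RNA the number was 15 of 5076 (0.296%), and among mitochondrial ribosomal protein genes 0 of 20. The large subunit gave 15 of 32 such genes and the small subunit 10 of 27, while the 3 stalk genes all had footprints. Over all 83 genes, 30 had at least 20 footprints in every column, 43 in at least 1 column, and 40 in none. A count of 0 allows up to 3 footprints, which are worth 0.609, 0.938, 0.881 and 0.811 CPM.

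The genes with 0 footprints in every column numbered 14, of which 8 code for the large and 6 for the small subunit. Rpsa (chr9:120127766-120132369), a small-subunit protein also known as the laminin receptor, had 67719, 13646, 11573 and 10090 RNA counts, and 0 footprints in all 4 columns. Rpl5, which carries the smallest ribosomal RNA into the large subunit, had 53360, 5542, 4658 and 3745 RNA counts and no footprint. Both messages were thus read in the RNA of every group while they are listed at 0 for footprints. Rps6, the classical substrate of the ribosomal S6 kinases, had 33361, 3339, 2482 and 2063 RNA counts and no footprint. Rps23, Rps13, Rps16, Rps28, Rpl15, Rpl38, Rpl36a and Rpl39 were likewise at 0. Rpl39 had the least RNA of these, with 2712, 123, 152 and 133 counts. The other 3 genes at 0, Rpl3l, Rpl10l and Rpl39l, are paralogs best known from muscle or testis and had at most 4 RNA counts in any column.

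The gap can be put as footprints per RNA read, a gene's share of its footprint column divided by its share of the RNA column, which needs no length correction and is near 1 for a typical gene. Over members with at least 1000 RNA counts in the column (80, 69, 67 and 62 genes), the median was 0.0186, 0.0277, 0.0238 and 0.0336. All genes with as much RNA had medians of 0.947, 0.810, 0.762 and 0.731, and mitochondrial ribosomal protein genes had 1.502, 1.13, 1.26 and 1.11. Under 20 footprints were counted for 40 of 80, 42 of 69, 36 of 67 and 33 of 62 of these members, against 5.26%, 2.53%, 2.37% and 2.65% of all such genes. At the other end, 7, 4, 3 and 2 of these members had a value of at least 1. Among all such genes these were 4427 of 9330, 2188 of 5732, 2209 of 5949 and 1897 of 5392. The highest values of these members were 3.16, 1.82, 1.69 and 1.22, and the lowest was 0 in every column. Rps25, with 980, 932 and 924 RNA counts in the last 3 columns, was left out there by the minimum of 1000. Other members left out in those columns were Rps27l, at 3.68, 3.62 and 2.32, Rpl41, at 4.38, 3.28 and 0.618, and Rpl35a, at 1.61, 1.19 and 0.552. Members with low values were left out too, such as Rpl39 at 0. The numbers at 1 or more and the highest values in those columns therefore depend on that minimum.

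**Figure D2:**
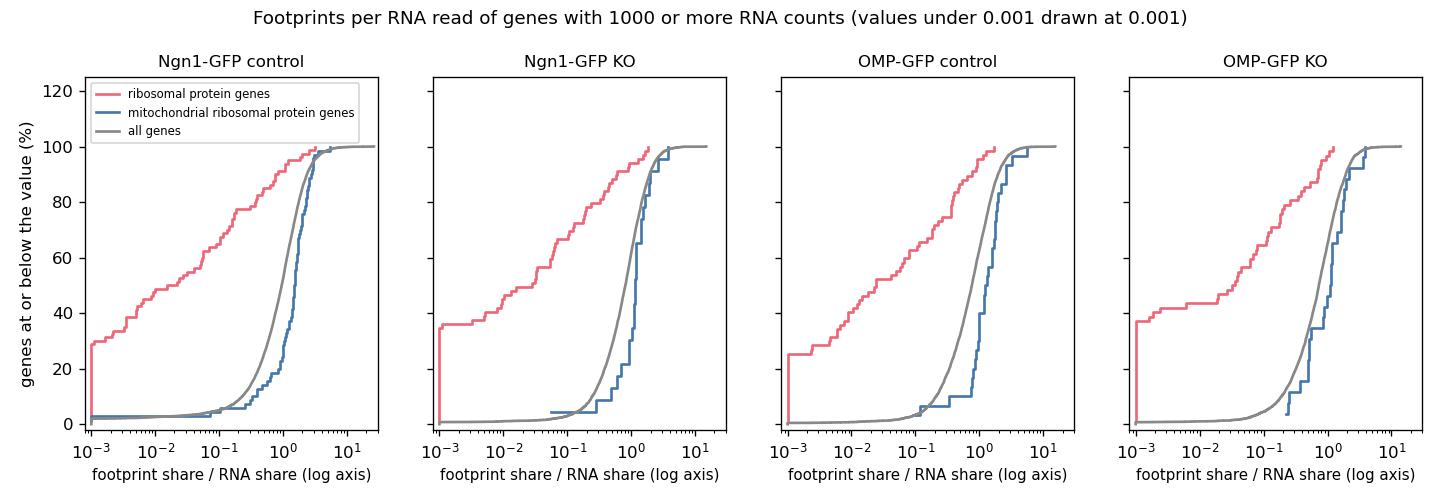
Share of genes (vertical axis, percent) at or below each value of footprints per RNA read (horizontal axis, log scale, values under 0.001 drawn at 0.001), for genes with at least 1000 RNA counts in that column. The ribosomal protein line starts high on the left, with its median at 0.0186 to 0.0336, while the mitochondrial ribosomal protein line has its median at 1.11 to 1.502.

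The order of the members was much the same in all 4 columns. Spearman's rho over the 83 genes ran from 0.859 to 0.932 between footprint columns and 0.826 to 0.985 between RNA columns, and over the 43 genes with at least 20 footprints in a column it was 0.874 to 0.929 for footprints per RNA read. These are descriptions over genes that share libraries, lengths and sequence. Within a column, footprints followed RNA only loosely, with rho of 0.133, 0.297, 0.312 and 0.348.

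Ribosomal protein genes have many processed pseudogenes, copies of the mRNA inserted into the genome that can be nearly identical to the parent gene. RefSeq names 322 of them by symbol for 63 of the 83 genes, an incomplete list. The 20 members without a named pseudogene had a median of 136 footprints over the 4 columns, the 17 with 1 had 601, and the 46 with 2 or more had 14.5. Under 20 footprints in every column were found for 7 of 20, 6 of 17 and 27 of 46. The 7 include Rpl3l, Rpl10l and Rpl39l, which had at most 4 RNA counts in any column. In the OMP-GFP control their median footprints per RNA read were 0.363, 0.359 and 0.00770. How reads that match several places were counted was not given in the sources used here, so counts of these genes are uncertain, and the part of pseudogenes in the missing footprints was not tested.

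The pseudogenes also set 1 RNA column apart. The table lists 9 of them as genes, and their RNA summed to 55240 counts in the Ngn1-GFP control but to 16, 41 and 10 in the other columns. Rpl10-ps3 had 24517, 0, 0 and 0 and Rpl27-ps3 had 12096, 0, 2 and 0. Their footprints summed to 5, 0, 1 and 0. In the same RNA column 74 of the 83 members were above every other column, 36 of them at least 2-fold, and the median member was 1.79 times the highest other column. Comparisons that use the Ngn1-GFP control RNA carry this difference, and its part in them was not tested. The OMP-GFP KO against its control, and the 2 KO groups against each other, do not use that column.

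Among large-subunit genes, Rpl8 and Rpl4 had the most footprints. Rpl8 (chr15:76904071-76906318), which lies near the centre where peptide bonds form, had 1950, 1168, 1329 and 1289 footprints, or 565, 498, 480 and 406 RPKM. Rpl4 (chr9:64173387-64178562), part of whose chain lines the exit tunnel of the nascent peptide, had 1869, 1114, 946 and 1438, or 333, 292, 210 and 278 RPKM. Per RNA read Rpl8 stood at 1.06, 0.931, 1.14 and 0.947 and Rpl4 at 0.747, 0.593, 0.543 and 0.702, so both lay in the range of ordinary genes in every column. Rpl13a, known also as a translational silencer once it leaves the ribosome, had 791, 510, 418 and 266 footprints. Rpl22, a protein that also binds viral and cellular RNAs, had 683, 528, 245 and 319. Rpl14 (chr9:120571517-120574653) had 189, 133, 169 and 412, highest in the OMP-GFP KO. Rpl41 (chr10:128548110-128549168), a very short protein that bridges the subunits, had 163, 174, 172 and 40 footprints over a coding length of 141 bases, the shortest of the family. Its RNA counts were 6765, 364, 467 and 425.

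Among small-subunit genes, Rps3, Rps25 and Rps14 had the most footprints. Rps25 (chr9:44407714-44410406), used by several viral RNAs to begin translation internally, had 1802, 731, 1065 and 723 footprints. It had the highest footprint level per base of the family in every column, at 1070, 638, 788 and 466 RPKM. Its RNA counts were 11447, 980, 932 and 924, so its footprints per RNA read were 3.16, 6.84, 10.2 and 5.14. Rps3 (chr7:99477896-99483709), which lines the channel where mRNA enters, had 1800, 1269, 1120 and 1009 footprints and 1.84, 1.65, 1.69 and 1.22 footprints per RNA read. Rps14, a protein of the platform of the small subunit, had 1510, 787, 580 and 438 footprints. Rps9, at the mRNA entry, had 1073, 551, 580 and 426. Rps19 (chr7:24884592-24889811), a gene mutated in Diamond-Blackfan anaemia, had 719, 415, 162 and 160. Its Ngn1-GFP columns were both above its OMP-GFP columns. Together Rpl8, Rpl4, Rps25, Rps3 and Rps14 (Rps9 in place of Rps14 in the OMP-GFP control) supplied 53.7%, 52.5%, 54.2% and 56.8% of the family's footprint counts, while the 5 genes with the most RNA supplied 15.9%, 19.8%, 20.8% and 21.0% of its RNA counts.

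The stalk, a flexible arm that recruits elongation factors to the ribosome, is formed by Rplp0 and pairs of Rplp1 and Rplp2. Rplp1 (chr9:61913283-61914510) and Rplp2 (chr7:141447651-141451359) had some of the highest RNA levels per base, at 1138, 1253, 1062 and 1178 TPM for Rplp1 and 1226, 1373, 1039 and 1095 TPM for Rplp2. Their footprint levels per base lay above the family median in every column. Rplp1 had 537, 327, 351 and 246 footprints (349, 313, 284 and 174 RPKM). Rplp2 had 196, 186, 177 and 75 (126, 176, 142 and 52.6 RPKM). Rplp0 (chr5:115559467-115563729), the base of the stalk, had 190, 137, 169 and 105 (44.7, 47.4, 49.5 and 26.8 RPKM). All 3 were lowest in the OMP-GFP KO.

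**Figure D3:**
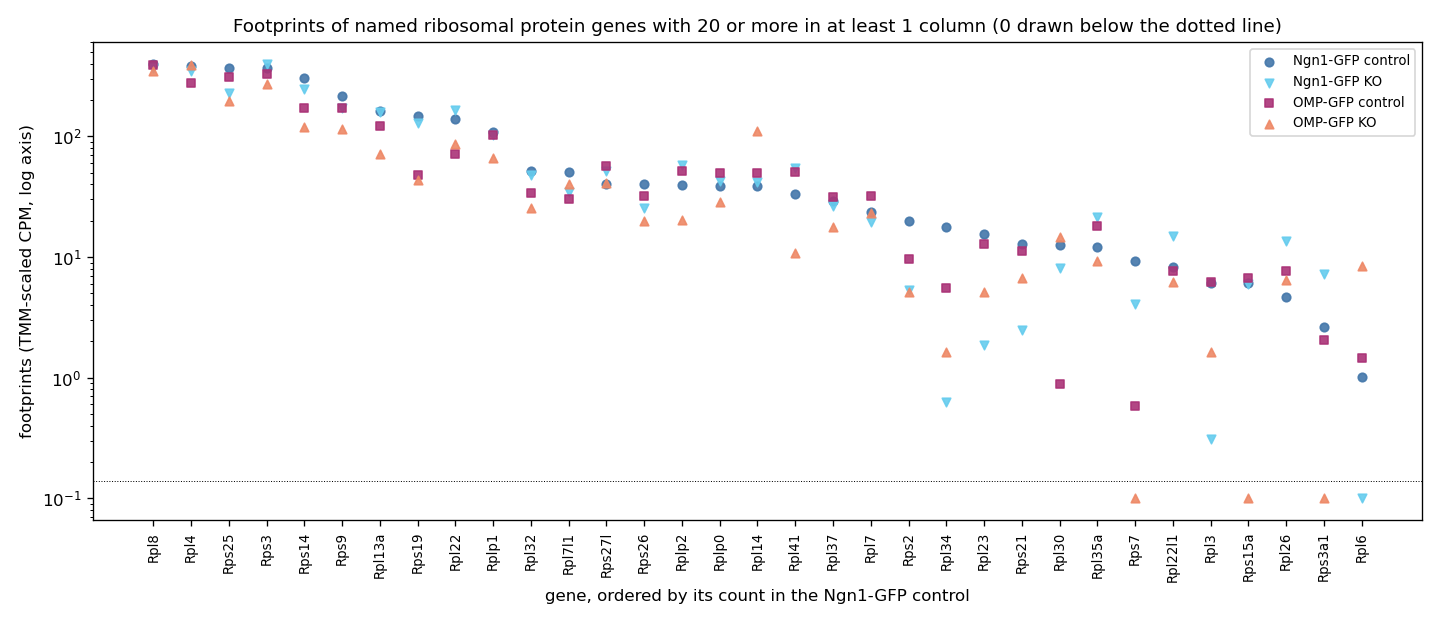
Footprints (TMM-scaled CPM, log axis) in the 4 groups for the 33 ribosomal protein genes named in the text among the 43 with at least 20 footprints in a column, ordered by their count in the Ngn1-GFP control; symbols stand for groups and a count of 0 is drawn below the dotted line. The leading genes have close symbols, Rpl14 stands out in the OMP-GFP KO, and genes with few footprints (Rpl34, Rpl3, Rpl30, Rps7) scatter widely.

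In 2 paralog pairs the share of footprints was far from the share of RNA. Rps27l (chr9:66944624-66949522), a close relative of Rps27 that p53 induces, had 200, 165, 195 and 153 footprints against 12, 0, 2 and 0 for Rps27 (chr3:90212667-90213648). It held 94.3% of the pair's footprints in the Ngn1-GFP control (exact Clopper-Pearson 95% interval 90.3 to 97.0%), all of them in both KO columns (lower bounds 97.8% and 97.6%) and 99.0% in the OMP-GFP control (96.4 to 99.9%), but 13.7%, 15.3%, 19.1% and 18.5% of its RNA. Rpl7l1, a nucleolar relative of Rpl7, had 247, 110, 103 and 148 footprints against 116, 62, 110 and 86 for Rpl7. Its share of the pair was 68.0%, 64.0%, 48.4% and 63.2% of footprints and 8.36%, 10.3%, 10.9% and 10.3% of RNA. Rpl22l1 and Rpl22 differed less, with Rpl22l1 at 5.66%, 8.33%, 9.59% and 6.73% of footprints and 8.88%, 5.65%, 6.78% and 8.89% of RNA. RefSeq names no pseudogene for Rps27l and Rpl22l1, 1 each for Rpl7l1 and Rpl22, 2 for Rps27 and 3 for Rpl7.

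The Mex3a KO was first set against its control in the Ngn1-GFP cells. A ratio was taken after TMM scaling for each gene whose counts in both columns summed to at least 20, and a gene was called higher or lower where it differed at least 2-fold and its 95% counting interval excluded equality. A member with few footprints enters such a list only where 1 column is high, and 40 of the 83 did not enter. Of the 43 that did, 3 were called higher and 6 lower, against 6.49% and 10.8% of the 12554 genes compared. The median log2 ratio was -0.17, and -0.00 over all genes. Among the leading genes some were close to level and others were lower. Rpl8 had a log2 ratio of -0.12 (-0.22 to -0.01), Rpl4 -0.12 (-0.23 to -0.02) and Rps3 0.12 (0.01 to 0.22). Rps14 stood at -0.32 (-0.44 to -0.19) and Rps9 at -0.34 (-0.49 to -0.19). Rps25 was the lowest of the well-covered genes, at -0.68 (-0.81 to -0.55), with 1802 footprints in the control and 731 in the KO.

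The called genes had under 50 footprints in at least 1 of the 2 columns. Rpl34 had 88 footprints in the Ngn1-GFP control and 2 in the KO, a log2 ratio of -4.84 (-7.91 to -2.94). Rpl23, a protein that can bind Mdm2, had 77 and 6 (-3.06, -4.55 to -1.87), and Rpl3, whose tip reaches the catalytic centre, had 30 and 1 (-4.28, -9.63 to -1.70). Rps21 had 63 and 8 (-2.35, -3.63 to -1.29) and Rps2, at the mRNA entry, 97 and 17 (-1.89, -2.73 to -1.14). In the other direction Rpl26 had 23 and 43 (1.53, 0.76 to 2.32), Rps3a1 13 and 23 (1.45, 0.40 to 2.55) and Rpl19 10 and 16 (1.30, 0.07 to 2.60). With at least 50 footprints required in both columns, 23 members remained and 0 were called, against 1.79% higher and 1.58% lower among 7704 genes. Rps7, with 46 and 13, was the other gene called lower under the wider rule. No stalk gene was called: Rplp0 stood at 0.15 (-0.18 to 0.48), Rplp1 at -0.09 (-0.30 to 0.11) and Rplp2 at 0.55 (0.25 to 0.84). The summed sustentacular markers went with this comparison, at 5832 CPM in the control and 711 in the KO, and their part in it was not tested.

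In the OMP-GFP cells the KO column was lower for most well-covered members while their RNA was close to equal. Of 41 members compared, 30 had fewer scaled footprints in the KO and the median log2 ratio was -0.47, against 0.00 over all genes. Called were 3 higher and 6 lower, against 7.12% and 8.54% of 11160 genes. The RNA of the 80 members compared had a median of 0.06, with 57 above 0 and 23 below, and 0 called higher and 2 lower, against 4.4% and 3.89% of 14351 genes. With at least 50 footprints in both columns, 18 of 22 members were lower and the median stayed at -0.47, beside 0.01 over 7124 genes.

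Rplp2 and Rpl14 were the 2 genes called under that stricter count, against 1.95% higher and 1.87% lower of all genes. Rplp2 had 177 footprints in control cells and 75 in the KO, a log2 ratio of -1.36 (-1.77 to -0.96), with 8005 and 7256 RNA counts. The other stalk genes were lower by less than 2-fold, Rplp0 at -0.81 (-1.17 to -0.45) and Rplp1 at -0.63 (-0.87 to -0.39). Rpl14 went the other way, with 169 and 412 footprints (1.17, 0.90 to 1.43) and 3175 and 2551 RNA counts. Rpl41 had 172 and 40 footprints (-2.22, -2.76 to -1.72) on 467 and 425 RNA counts. Among genes with fewer footprints, Rps15a had 23 and 0, which is 8.33-fold lower with the 0 set to 3 counts (the interval ends at -2.64), Rpl3 21 and 6 (-1.93, -3.53 to -0.57) and Rpl23 44 and 19 (-1.33, -2.19 to -0.53). Rpl30 had 3 and 54 (4.05, 2.43 to 6.37) and Rpl6 5 and 31 (2.51, 1.14 to 4.23), on 1173 and 1025 RNA counts for Rpl30 and 4280 and 3321 for Rpl6. Rpl34, with 19 and 6 footprints, was the last of the 6 called lower. Well-covered members below the 2-fold rule included Rps25 at -0.68 (-0.82 to -0.54), Rpl13a at -0.77 (-0.999 to -0.55), Rps9 at -0.57 (-0.75 to -0.38) and Rps14 at -0.53 (-0.71 to -0.34). Rpl4 stood at 0.48 (0.36 to 0.60). Markers of sustentacular cells (209 and 584 CPM) and glands (75.5 and 549 CPM) were higher in this KO column, and their part in the result was not tested.

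**Figure D4:**
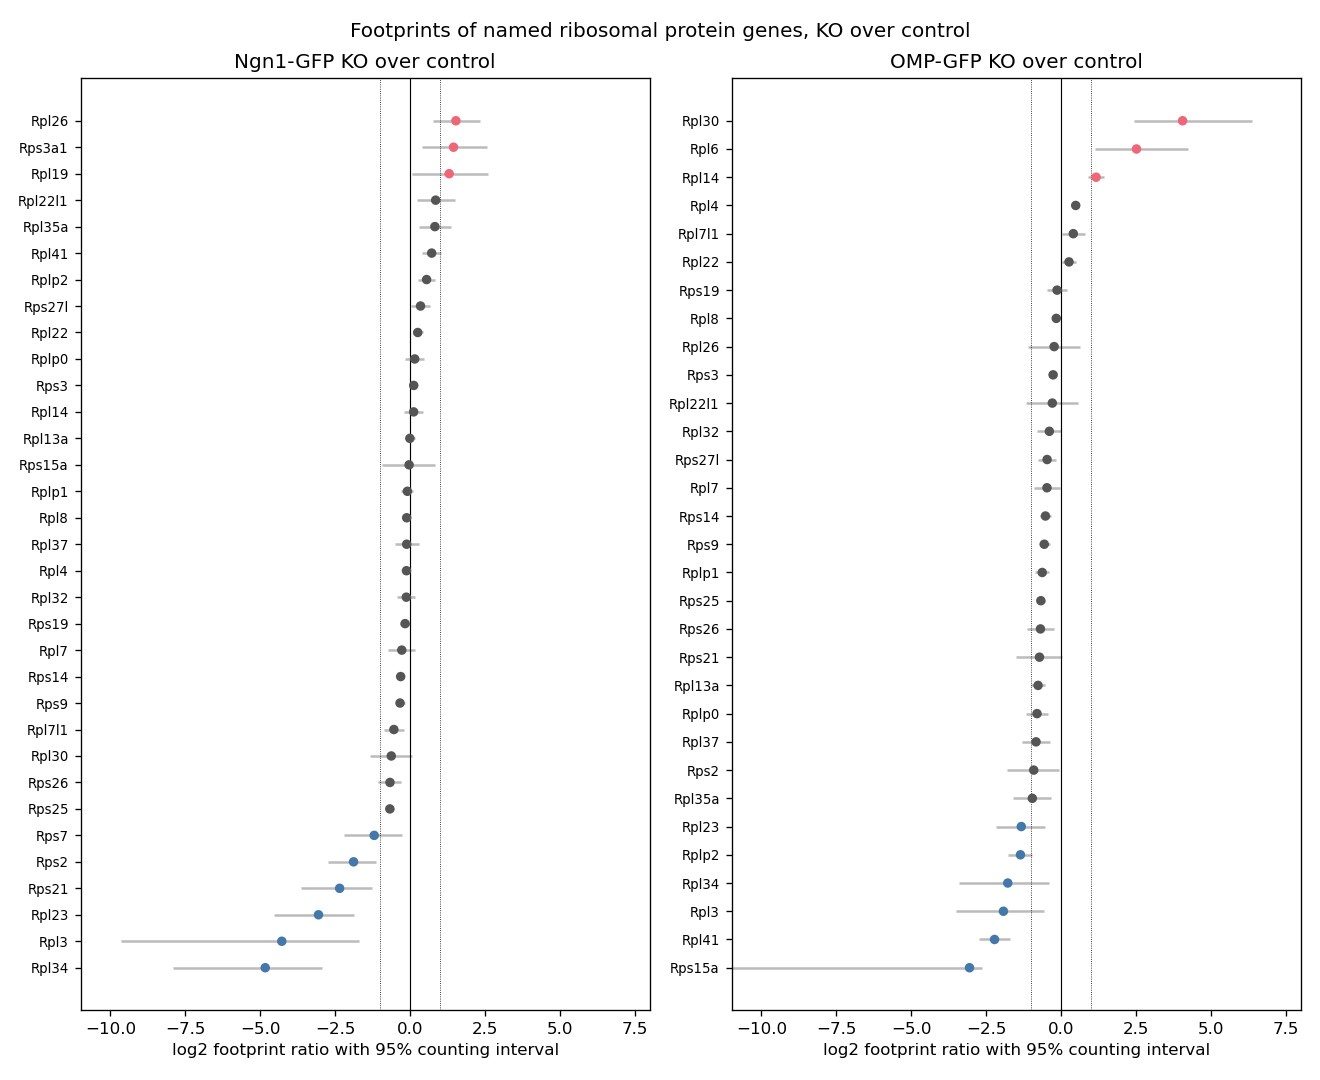
Log2 footprint ratio of KO over control in Ngn1-GFP (left, 33 genes) and OMP-GFP cells (right, 31 genes), for the ribosomal protein genes compared that the text names; bars are 95% counting intervals, dotted lines mark 2-fold, red genes were called higher and blue genes lower. Wide bars belong to genes with few footprints, and more points lie below 0 than above it in both panels, 21 on the left and 25 on the right.

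The KO comparisons of the 2 populations share no column. Of 40 members compared in both, 23 (57.5%) had the same sign, against 53.9% of 10845 genes. Intervals lay below 0 in both for 10 of the 40, against 7.58% of all genes, among them Rpl8, Rps9, Rps25, Rps14, Rps26, Rps2, Rpl3, Rpl34 and Rpl23. Rpl22 was the 1 member with both intervals above 0 (2.5%, against 8.27% of all genes), at 0.25 (0.08 to 0.42) and 0.26 (0.02 to 0.51). Intervals pointed in opposite directions for 8 members (20%, against 11.1% of all genes). Rps25 had a footprint ratio of -0.68 in each population, beside RNA ratios of -1.92 (-2.01 to -1.82) in the Ngn1-GFP pair and 0.25 (0.11 to 0.38) in the OMP-GFP pair. The RNA ratio of the Ngn1-GFP pair uses the control RNA column that stood apart. Rpl3, Rpl34 and Rpl23 were called lower in both (3 of 40, against 157 of 10845 genes, 1.45%). Each had under 20 footprints in both KO columns, so all 3 reached the minimum only with their control counts. None of them remained with at least 50 footprints required in both columns.

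Set against control, the RNA of the Ngn1-GFP KO was lower for most members, but this comparison uses the RNA column that stood apart. The median log2 ratio over 80 members was -0.89, with 37 called lower and 0 higher, against 11.9% lower and 4.4% higher of 16564 genes. The largest were Rpl15 at -3.27 (18730 and 628 counts), Rpl39 at -2.83, Rpl35a at -2.65, Rpl41 at -2.59 and Rpl27 at -2.41. The stalk genes were not called, with Rplp0 at -0.94, Rplp1 at -0.09 and Rplp2 at -0.07, and neither were Rpl4 at 0.09 and Rpl8 at -0.05. By number of named pseudogenes, the median ratio was -0.36 for members with none, -0.84 with 1 and -1.21 with 2 or more. In the OMP-GFP pair the 2 genes called lower were Rps3a1, with 2621 and 1039 RNA counts (-1.08, -1.18 to -0.97), and Rpl34, with 2142 and 872 (-1.04, -1.15 to -0.92). Both had few footprints in this pair, in control and then KO. Rps3a1 had 7 and 0, too few for a footprint ratio, and Rpl34 had 19 and 6.

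OMP-GFP cells, called mature here, were then set against Ngn1-GFP cells, called immature. The Ngn1-GFP cells hold immediate neuronal progenitors as well as immature neurons. The 2 sorted populations overlap in their markers. Mature-neuron markers summed to 12548 and 13872 CPM of footprints in the Ngn1-GFP columns and 20681 and 24718 in the OMP-GFP columns. In control mice the footprints of 43 members had a median log2 ratio (OMP-GFP over Ngn1-GFP) of -0.22, beside -0.02 over all genes. Called were 0 higher and 6 lower, against 6.11% and 17.4% of 12387 genes. In KO mice the median over 39 members was -0.32, with 7 called higher and 10 lower, against 11.3% and 18.4% of 11766 genes. Rps19 was lower in mature cells by about the same factor in both genotypes, with 719 and 162 footprints in controls (-1.62, -1.87 to -1.37) and 415 and 160 in KO (-1.59, -1.86 to -1.32). Rps14 had -0.85 (-0.99 to -0.71) in controls and -1.06 (-1.23 to -0.89) in KO, and Rpl22 -0.95 (-1.16 to -0.73) and -0.94 (-1.14 to -0.73). With at least 50 footprints in both columns, Rps19 was the 1 member of 24 called in controls (4.34% of 7496 genes were higher and 3.24% lower). In KO mice Rpl14 was higher and Rps14, Rplp2, Rps19 and Rpl13a were lower among 21 members (5.36% and 5.17% of 6920 genes). Rpl8 was near equality in both, at -0.02 (-0.12 to 0.08) and -0.07 (-0.18 to 0.05).

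Of 38 members compared in both genotypes, whose columns do not overlap, 9 had intervals below 0 in both (23.7%, against 16.8% of 11399 genes). Among them were Rps3, Rps9, Rps14, Rps19, Rps25, Rpl13a, Rpl22 and Rpl32. Rpl14 was among the 2 with both intervals above 0 (5.26%, against 17.3% of all genes). Other members had unlike values in the 2 genotypes, a difference that was not tested. Rplp2 stood at 0.39 (0.08 to 0.69) in controls and -1.52 (-1.93 to -1.13) in KO, and Rpl41, with 163, 174, 172 and 40 footprints, was at 0.61 (0.29 to 0.93) in controls and -2.33 (-2.87 to -1.83) in KO. Rpl30 had 62 and 3 footprints in controls (-3.84, -6.15 to -2.22) against 26 and 54 in KO, and Rps7 had 46 and 2 (-3.99, -7.08 to -2.06) in controls. Rpl6, with 0 in the Ngn1-GFP KO and 31 in the OMP-GFP KO, was 8.93-fold higher with the 0 set to 3 counts (the interval starts at 2.77), and Rps3a1, with 23 and 0, was 8.87-fold lower in the same way (the interval ends at -2.73). The 7 precursor markers summed to 1139, 1484, 139 and 151 CPM of footprints, with 1 at 0 in the OMP-GFP control. The 4 horizontal basal cell markers summed to 102, 112, 1.47 and 0.811 CPM, with 0, 1, 3 and 3 of them at 0. The sustentacular markers, at 5832, 711, 209 and 584 CPM, differed between the populations as well. The part of these cell types in the ratios was not tested.

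Most RNA ratios of ribosomal protein genes lay below 0 in mature over immature cells, but few passed the 2-fold rule in KO mice. In KO mice, where the column that stood apart is not involved, 68 of 80 members were below 0 with a median log2 ratio of -0.27, beside -0.01 over all genes, and 0 were called higher and 3 lower, against 4.77% and 16.4% of 15058 genes. Rps3a1 had 3864 and 1039 RNA counts (-1.73, -1.83 to -1.63), Rpl29 had 1134 and 382 (-1.41, -1.58 to -1.24) and Rps26 had 6867 and 2689 (-1.19, -1.26 to -1.13). In control mice all 80 were below 0, with a median of -1.24 beside -0.04, and 0 were called higher and 48 lower, against 3.43% and 24.1% of 16466 genes. The control values use the column that stood apart. Intervals lay below 0 in both genotypes for 62 of 80 members (77.5%, against 27.2% of 14972 genes). The mitochondrial ribosomal protein genes had RNA medians of 0.05 in controls and 0.17 in KO.

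**Figure D5:**
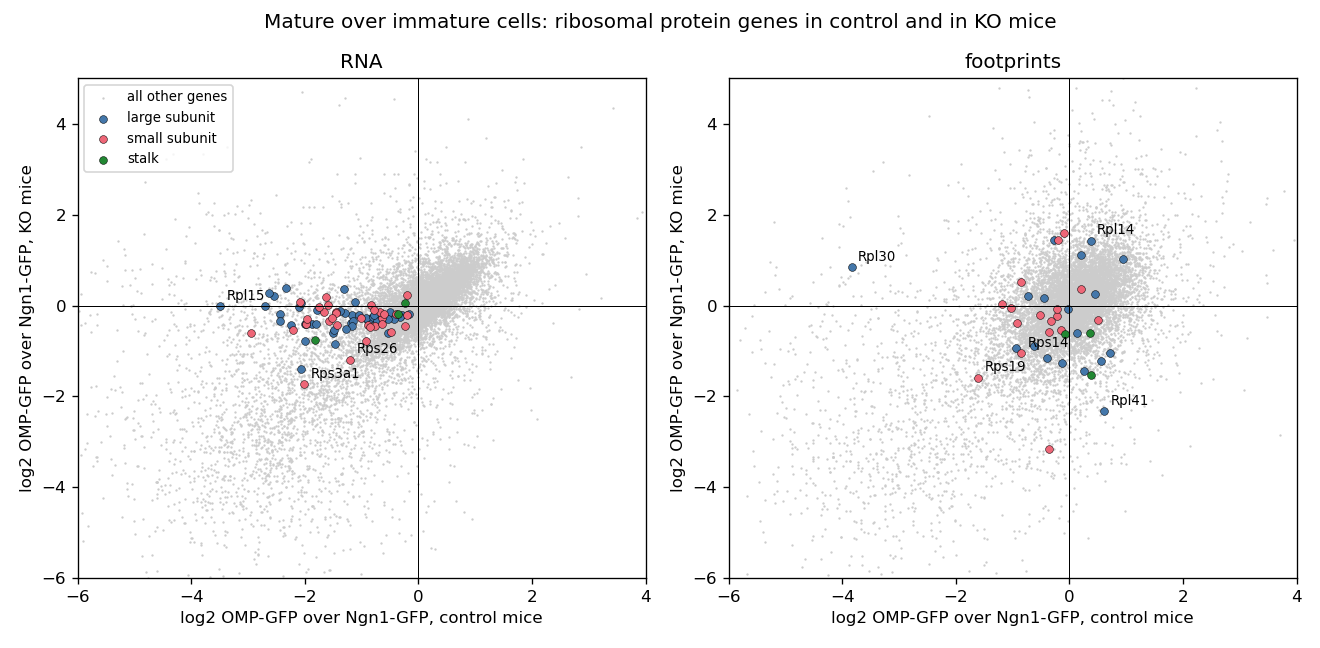
Log2 ratio of OMP-GFP (mature) over Ngn1-GFP (immature) cells in control mice (horizontal axis) and in KO mice (vertical axis), for RNA (left) and footprints (right); each point is a gene with at least 20 counts in both pairs, grey for all other genes. In RNA the ribosomal protein points lie left of 0 and mostly below 0, while in footprints they spread around 0, with Rps19 low in both and Rpl41 at 0.61 in controls and -2.33 in KO mice.

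Footprints per RNA read combine both ratios, and their intervals are approximate. In the OMP-GFP KO over control, 4 of 41 members were called higher and 8 lower, against 7.13% and 9.08% of 11124 genes, with a median log2 ratio of -0.58 beside -0.00. Rplp2 was at -1.48 (-1.87 to -1.08), Rpl37 at -1.05 (-1.50 to -0.60) and Rpl14 at 1.22 (0.95 to 1.49), and these 3 were called with at least 50 counts in both columns too, against 2.18% higher and 2.53% lower of 7112 genes. In KO mice, mature over immature cells, 7 of 39 were called higher and 6 lower, against 9.78% and 13.2% of 11717 genes. Rps19 stood at -1.23 (-1.51 to -0.95), Rplp2 at -1.34 (-1.73 to -0.95) and Rpl14 at 1.81 (1.52 to 2.10), the 3 called with at least 50 counts in both columns, against 3.26% higher and 4.79% lower of 6908 genes. The other 2 comparisons use the RNA column that stood apart. There, 12 of 43 members were called higher and 4 lower in the Ngn1-GFP KO over control, against 8.03% and 10.2% of 12533 genes, and 15 of 43 higher and 1 lower in mature over immature control cells, against 5.98% and 8.54% of 12378 genes. Rpl35a (3.48 and 3.10), Rpl41 (3.30 and 2.93) and Rpl26 (2.83 and 2.95) led both. With at least 50 counts in both columns the calls were 4 higher and 0 lower of 23 members in the first (2.94% and 1.87% of 7692 genes) and 7 and 0 of 24 in the second (1.99% and 2.36% of 7492). These comparisons share the Ngn1-GFP control columns, so the 2 sets of values are not independent. Their footprints were 60, 69 and 61 for Rpl35a, 163, 174 and 172 for Rpl41 and 23, 43 and 26 for Rpl26 in the first 3 columns, while the RNA counts were 7664, 394 and 456 for Rpl35a, 6765, 364 and 467 for Rpl41 and 50850, 6655 and 3731 for Rpl26.

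The other gene lists of the pathway are read against the same shares of all genes called, which were 6.49% higher and 10.8% lower in the Ngn1-GFP KO footprints and 7.12% higher and 8.54% lower in the OMP-GFP KO footprints. Among 16 other mRNAs of the TOP class (elongation factors, Tpt1, Pabpc1, Naca, Btf3 and others), 0 were called in the Ngn1-GFP KO footprints and 3 were called lower in the OMP-GFP KO, against 8.54% of all genes. These were Naca, with 70 footprints in the control and 30 in the KO (-1.34, -2.01 to -0.71), Btf3, with 121 and 62 (-1.08, -1.55 to -0.63), and the elongation factor subunit Eef1g, with 18 and 7 (-1.48, -2.98 to -0.16). Naca and Btf3 are the subunits of the nascent polypeptide-associated complex, which meets new chains at the ribosome exit. Of 20 genes of the mTOR pathway and of TOP binding, 0 were called higher in either KO, 1 was called lower among Ngn1-GFP cells and 2 among OMP-GFP cells, beside the shares just given for all genes. The kinase Rps6kb2 was lower in both, with 109 and 30 footprints in the Ngn1-GFP pair (-1.24, -1.87 to -0.64) and 56 and 30 in the OMP-GFP pair (-1.02, -1.71 to -0.36). Eif4ebp1, a repressor of cap-dependent translation that mTOR inactivates, had 24 and 2 in the OMP-GFP pair (-3.70, -6.83 to -1.69). Between mature and immature cells, 0 TOP-class genes were called in controls (6.11% of all genes were higher and 17.4% lower), and 0 were called higher and 5 of 16 lower in KO mice (11.3% and 18.4% of all genes), among them Btf3 with 239 and 62 footprints (-2.16, -2.58 to -1.75) and Naca with 124 and 30 (-2.26, -2.88 to -1.67).

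Of 50 genes for ribosome assembly, 1 was called higher and 2 lower in the Ngn1-GFP KO, and 2 higher and 1 lower of 49 in the OMP-GFP KO, each a smaller share than that of all genes (6.49% and 10.8%, then 7.12% and 8.54%). Bysl, a factor of small-subunit assembly, was lower in both, with 206 and 40 footprints (-1.74, -2.27 to -1.25) and 80 and 41 (-1.08, -1.66 to -0.52). Wdr12, of the large-subunit assembly complex PeBoW, had 39 and 180 (2.09, 1.58 to 2.63) and the pseudouridine synthase Dkc1 90 and 222 (1.18, 0.82 to 1.55) in the OMP-GFP pair. The medians of the assembly genes were 0.01 and -0.08, and those of 76 mitochondrial ribosomal protein genes 0.01 and -0.13.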

How the data were processed

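The authors' deposited table gives, per gene and group, raw counts of ribosome footprints and of input RNA over coding sequences, with RPKM for footprints and TPM for RNA computed by the authors and a coding length in another column, per the file headers. FastQC, cutadapt, STAR and the mm10 genome appear in the submitters' processing notes. The counter, the handling of reads that match several places, and how the libraries were joined into 1 column per group are not given in the sources used here. Libraries were made with a stranded total RNA kit after papain dissociation, per the labels' protocols.

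Counts were used as deposited. Scaling factors came from TMM in edgeR 4.0.16 (R 4.3.3) over 13479 genes for footprints and 16388 for RNA (filterByExpr, minimum count 10, minimum total 15). Ratios and intervals were computed in Python 3.11.15 with scipy 1.17.1 (exact conditional binomial interval for a count ratio, normal approximation on the log scale for footprints per RNA read), for genes with at least 20 counts in the pair. A 0 was set to 3 counts. edgeR's quasi-likelihood test had been planned in case there was a column per library, which the table does not have. The code was tested on simulated data. Full values go to stalk genes, paralog pairs, members without footprints, the 5 members per quantity and direction with the bound nearest 0 farthest out, and the 5 highest per base; up to 3 genes per direction are named from other lists, and other members were chosen after their values were seen. The members, gene lists and comparisons were chosen with earlier results of these data known. The alternatives scaled by size factors of DESeq2 1.42.0, by column totals, or by TMM without ribosomal protein, receptor and mitochondrial genes, and used other count minimums, no paralogs, 1 count for a 0, and another denominator for shares. RefSeq tables (GRCm38.p6) gave positions for all 83 members and start sequences for 63. Values of some single genes are not reported here, and the plots by gene draw only members named in the text.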

Additional observations from a re-analysis of the deposited data

Results flagged for a closer look

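Members called in opposite directions in the KO comparisons of the 2 populations numbered 3, all in footprints per RNA read. The difference between the populations was not tested. Rpl35a had a log2 ratio of 3.48 in the Ngn1-GFP KO over control and -1.05 in the OMP-GFP KO over control, Rpl41 had 3.30 and -2.35, and Rpl7a had 1.26 and -1.03. The Ngn1-GFP values use the RNA column in which most members stood high, and the RNA counts of Rpl35a there were 7664 in the control and 394 in the KO, beside 60 and 69 footprints.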

How the results depend on the processing

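No paired analysis was possible because the table holds 1 column per group, and leaving out a replicate could not be run for the same reason. Over the alternatives, 83 medians, 74 counts of called members, 508 values of single genes and 7 shares stayed close to the values given (for medians, within a wide range set by the spread among members), and 1, 10, 4 and 17 moved further. The 4 single genes moved under library size alone. Requiring at least 50 counts in both columns lowered the members called in footprints from 9 to 0 (Ngn1-GFP KO), 9 to 2 (OMP-GFP KO), 6 to 1 (mature over immature, controls) and 17 to 5 (the same in KO mice), and in footprints per RNA read from 16 to 4, 12 to 3, 16 to 7 and 13 to 3. Fewer members enter under that minimum. Of 84 medians, 1 changed sign and 9 moved by over 0.2. The minimum of 50 turned the median of footprints per RNA read in KO mice, mature over immature, from 0.13 to -0.30, moved it from 0.70 to 0.38 in controls, and moved the footprint median in KO mice from -0.32 to -0.54. Any count at all moved medians of footprints per RNA read from 0.25 to 0.68 (Ngn1-GFP KO), -0.58 to -0.36 (OMP-GFP KO) and 0.70 to 0.91 (mature over immature, controls), moved the footprint median of the OMP-GFP KO from -0.47 to -0.25, and gave 26 in place of 17 for footprints in KO mice. Library size alone gave 10 in place of 6 for footprints in controls, moved the footprint medians of mature over immature cells from -0.22 to -0.44 in controls and from -0.32 to -0.54 in KO mice, moved the RNA median in KO mice from -0.27 to -0.39, and shifted all genes as well, from -0.02 to -0.23 for footprints in controls, from -0.01 to -0.23 for footprints and from -0.01 to -0.13 for RNA in KO mice. Without the paralogs the family's footprint shares were 0.362%, 0.308%, 0.251% and 0.202%. Low footprint counts limit the 40 members with under 20 footprints in every column, most of which entered no footprint ratio. Rpl19 and Rpl27 were among those that did. Without replicates a difference between 2 columns cannot be told from a difference between libraries.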

Other observations

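Outside the family, 15 genes had at least 1000 RNA counts in every column but under 20 footprints in all 4 together. Fau, which codes for a ubiquitin-like protein fused to a small-subunit ribosomal protein, had 18883, 4625, 4774 and 4149 RNA counts in Ngn1-GFP cells (control, KO) and then OMP-GFP cells (control, KO). Ppia (the peptidyl-prolyl isomerase cyclophilin A) had 62871, 11302, 11589 and 10597, and Actg1 (cytoplasmic gamma-actin) 148921, 5190, 3925 and 3667. Tmsb10, Eif1, H2afz, Hmgn2, Ptges3, Serf2, Pdcd5, Tom1, Traf3, Fam227a, 1810022K09Rik and 9330159F19Rik made up the rest. These genes were chosen by that count and no other test was made.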
